A study of Mus musculus with 18 samples.

Results

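The Hox family was described in cultured fibroblasts from the tail tips of mice. Members were taken by their symbol, Hoxa, Hoxb, Hoxc or Hoxd followed by a number. Of 24445 gene symbols in the table, 39 matched and 38 are described: 10 from the HoxA cluster, 10 from HoxB, 9 from HoxC and 9 from HoxD. No measured value was used to choose them, but patterns of these genes in the same libraries were already known.

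Hox genes encode homeodomain transcription factors and lie in 4 clusters. Within a cluster the genes are ordered so that those at the 3′ end act towards the head and those at the 5′ end towards the tail, and genes at matching places in different clusters are paralogues. Paralogue group numbers run from the anterior to the posterior end of that order. Fibroblasts in culture keep a Hox pattern that reflects the body site they were taken from, and posterior genes such as Hoxb13, Hoxc13 and Hoxa13 are known from the distal parts of the body, the tail and the skin. In the embryo the last groups act at the tip of the growing body axis.

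The study treated cells of mice that carry Pro, a progeria allele of Lmna, with CRISPR/Cas9. Progeria is a premature ageing disease caused by a shortened form of lamin A. Cells came from mice of 2 months and were collected at passage 5. The genotypes were Pro/Pro;Cas9/+ (homozygous Cas9 cells), Pro/+; +/+ (heterozygous cells, with no Cas9) and +/+;Cas9/+ (wild-type Cas9 cells). Heterozygous cells therefore differ from both other genotypes in Cas9 as well as in Pro. Cells of each mouse received lentivirus with 1 of 3 guide RNAs: gMock, a mock guide, gLmna-1 or gLmna-2, both of which target Lmna. All cultures, the mock-treated ones included, carry the lentivirus with its mCherry reporter. The labels give over 80% mCherry-positive cells and no sorting, and do not say what drives Cas9. Each genotype was represented by 2 mice, called mouse 1 and mouse 2, and each mouse gave 1 library per treatment, so that there were 18 libraries from 6 mice. The name of heterozygous mouse 2 joins a pair of numbers, and the labels do not say whether it stands for a pool.

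The libraries held 22424416 to 42622014 reads, recovered from the steps of the values. Levels are given in FPKM, a count scaled to transcript length and library depth, so that they can be compared between genes of different length. Of the 11 fibroblast markers, all were at 1 FPKM or more in every mouse, and their summed level lay between 9994 and 14260 FPKM. The 8 keratinocyte markers summed to between 2.18 and 3.75 FPKM: Krt5, Krt14 and Krt1 were at or near 0, while Krt10 and Sfn had means of 1.05 and 1.11 FPKM and Trp63 reached 1.49 FPKM. The 6 endothelial markers summed to between 0.351 and 2.87 FPKM, with Pecam1 at 0.362 FPKM or less and Cdh5 at up to 1.33 FPKM. The 7 skeletal muscle markers summed to between 7.10 and 66.4 FPKM. Among them the regulators Myod1, Myf5 and Pax7 were at or near 0, while Acta1 had a mean of 25.7 FPKM and Des reached 1.62 FPKM. The 9 Schwann and pigment cell markers summed to between 9.28 and 43.2 FPKM, with S100b at up to 20.1 and Sox10 at up to 8.42 FPKM. The cultures were not free of other cells: the 10 macrophage and immune markers summed to between 71.1 and 1512 FPKM, and the 10 markers of cartilage, bone and tendon to between 55.2 and 463 FPKM. In heterozygous mouse 2, Xist was at 0.0189 FPKM or less and the Y-linked gene Ddx3y at 18.4 to 19.4 FPKM. In the other 5 mice Xist was at 16.3 FPKM or more and Ddx3y at 0.0213 or less. Lmna, the targeted gene, lay between 196 and 381 FPKM over the 18 libraries, and edits that do not lower the amount of RNA are not seen in such a level. In bulk RNA, fewer cells of a type and less RNA per cell cannot be told apart.

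The posterior members dominated the family in these cells. The 16 members of groups 9 to 13 gave 83.5% of the summed Hox FPKM on average, with a range of 75.0% to 89.2% over the libraries. The 11 central members, groups 5 to 8, gave 11.2%, and the 11 anterior members, groups 1 to 4, gave 5.27%. A mean of at least 1 FPKM was reached by 20 of 38 members. They were unevenly spread over the clusters, with 9 of 10 in HoxB, 6 of 10 in HoxA, 5 of 9 in HoxC and 0 of 9 in HoxD. HoxB gave 64.8% of the summed level, HoxC 22.1%, HoxA 12.5% and HoxD 0.643%.

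**Figure D1:**
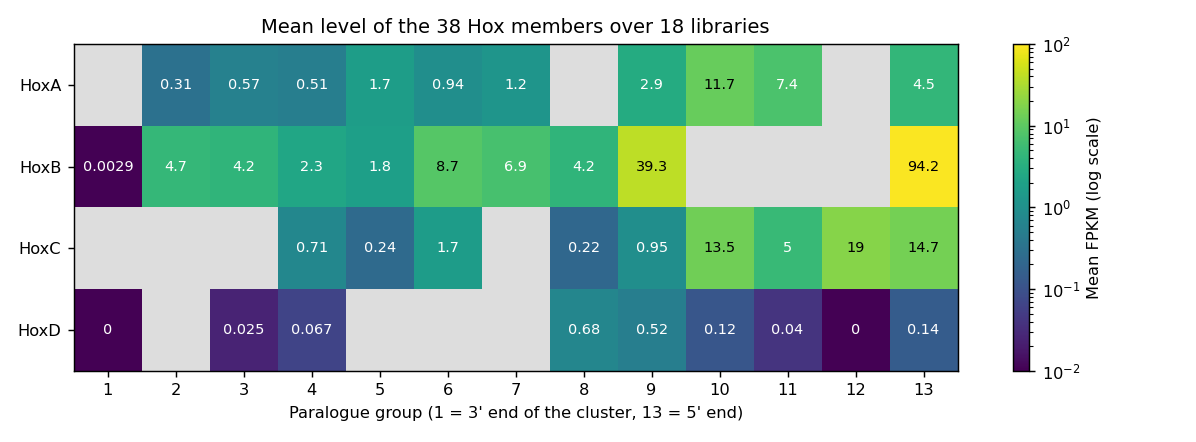
Mean FPKM of the 38 Hox members over 18 libraries, with the cluster on the vertical axis, the paralogue group on the horizontal axis and colour on a log scale (values under 0.01 drawn as 0.01). Hoxb13 is highest at 94.2 FPKM, every HoxD member is below 1 FPKM, and grey squares hold no member described.

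Hoxb13 was the highest member in 16 of 18 libraries, and Hoxb9 in the other 2. It is the last gene of the HoxB cluster (mm10, chromosome 11, 96194361 to 96196599, plus strand) and had a mean of 94.2 ± 32.7 FPKM (SD over 6 mice). It alone gave 36.4% of the summed Hox level, between 14.5% and 53.5%. Hoxb9, a posterior member of the same cluster (chromosome 11, 96271330 to 96276593), followed with 39.3 ± 4.70 FPKM and a range of 32.1 to 53.97. The HoxC posterior genes came next: Hoxc12 at 19.0 ± 1.56, Hoxc13 at 14.7 ± 2.19 and Hoxc10 at 13.5 ± 2.23 FPKM. Their ranges over the libraries met, so that the order among these 3 is not fixed beyond their spread. Hoxa10 at 11.7 ± 3.05 and Hoxa11 at 7.40 ± 2.35 FPKM were the highest HoxA members.

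The 4 paralogues of group 13 stood far apart. Hoxb13 ranged from 34.3 to 156 FPKM, with a median of 87.3. Hoxc13, which is known from hair and nail, ranged from 9.88 to 21.9 FPKM. Hoxa13, known from the limb ends and the hindgut, ranged from 2.49 to 6.62 FPKM with a mean of 4.51 ± 0.784. Hoxd13, which acts with Hoxa13 in forming digits, ranged from 0.0336 to 0.325 FPKM, from 206 reads in all. None of these 4 ranges overlapped with another, so each library held the order Hoxb13, Hoxc13, Hoxa13, Hoxd13. The depth was enough to see the low level of Hoxd13 but not to compare it between groups.

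Promoters of 4 members named in the results are shown here. Hoxa13 and Hoxd13 are paralogues with a large difference in level. Hoxa9 and Hoxa10 are HoxA members whose libraries with Pro lay above all wild-type libraries. The sequences are from RefSeq on GRCm38.p6, the patch release of the mm10 build, and run from 250 bases before to 50 bases after the annotated start. They are read 5′ to 3′ on the strand of the gene, and capitals mark each CG. The HoxA genes lie on the minus strand at chr6:52260831-52261130 (Hoxa13), chr6:52227321-52227620 (Hoxa9) and chr6:52240805-52241104 (Hoxa10). Hoxd13 lies on the plus strand at chr2:74667975-74668274, and its annotated start is 85 bases from that of the transcript measured.
Hoxa13: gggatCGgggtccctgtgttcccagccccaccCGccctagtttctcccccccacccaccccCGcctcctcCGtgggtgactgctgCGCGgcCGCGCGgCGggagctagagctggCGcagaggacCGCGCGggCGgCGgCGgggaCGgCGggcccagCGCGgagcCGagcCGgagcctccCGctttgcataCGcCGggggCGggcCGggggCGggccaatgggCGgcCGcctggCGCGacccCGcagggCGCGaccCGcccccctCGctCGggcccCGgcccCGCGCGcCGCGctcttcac
Hoxd13: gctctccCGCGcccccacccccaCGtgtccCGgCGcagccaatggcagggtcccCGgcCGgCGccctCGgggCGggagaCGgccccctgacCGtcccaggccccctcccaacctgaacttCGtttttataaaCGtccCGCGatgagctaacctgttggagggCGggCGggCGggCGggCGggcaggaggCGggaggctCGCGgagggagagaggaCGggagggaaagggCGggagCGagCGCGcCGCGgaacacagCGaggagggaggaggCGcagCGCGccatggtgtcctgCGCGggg
Hoxa9: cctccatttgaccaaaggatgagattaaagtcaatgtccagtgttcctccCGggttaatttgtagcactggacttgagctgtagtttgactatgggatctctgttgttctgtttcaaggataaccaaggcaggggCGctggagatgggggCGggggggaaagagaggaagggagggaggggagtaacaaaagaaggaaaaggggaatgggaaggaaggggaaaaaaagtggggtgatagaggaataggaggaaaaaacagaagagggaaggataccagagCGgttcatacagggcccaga
Hoxa10: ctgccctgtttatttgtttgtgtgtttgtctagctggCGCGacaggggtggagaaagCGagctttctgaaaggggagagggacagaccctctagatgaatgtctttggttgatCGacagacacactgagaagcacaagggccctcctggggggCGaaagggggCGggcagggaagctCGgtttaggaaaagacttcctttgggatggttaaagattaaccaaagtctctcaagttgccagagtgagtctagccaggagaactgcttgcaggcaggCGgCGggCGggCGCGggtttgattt

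CG dinucleotides were dense in both group 13 promoters, with 45 in Hoxa13 and 37 in Hoxd13, while the first gene was measured at 4.51 FPKM and the second at 0.144 FPKM. Hoxa10 had 12 and Hoxa9 had 4. Hoxa5, Hoxa7 and Hoxa11, whose homozygous libraries also lay above all wild-type libraries, had 29, 9 and 15. Whether the CG count goes with the level or with the genotype was not tested. Promoters were found for 22 of 38 members, with a median of 13.5 CG beside 7 over the 32841 promoters of the table. The motif TCGTAAA was searched on both strands and occurred in the promoters of Hoxb8 and Hoxd11, 9.09% of members beside 0.597% of all promoters. The motif CAATAAA occurred in those of Hoxb8 and Hoxd4, 9.09% beside 4.60%. Such matches describe letters in these windows only.

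In the other groups a HoxB member was highest where the cluster has one. Hoxb2, Hoxb3, Hoxb4, Hoxb6, Hoxb7, Hoxb8 and Hoxb9 were each above their paralogues in 18 of 18 libraries. In group 5, Hoxb5 (1.82 FPKM on average) was above Hoxa5 (1.70 FPKM) in 12 of 18 libraries only, so their order is not set beyond the spread. HoxB has no gene of groups 10 to 12. There, Hoxc10 was above Hoxa10 in 13 of 18 libraries, Hoxa11 above Hoxc11 in 17 and Hoxc12 above Hoxd12 in 18. Group 1 was all but silent: Hoxb1, a hindbrain gene, had 3 reads over the 18 libraries, and Hoxd1 had 0 reads, which allows a mean of up to 0.00298 FPKM. This limit and the next cover counting error only.

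HoxD was low along its whole length. Hoxd8 was highest, with a mean of 0.684 ± 0.318 FPKM and a range of 0.199 to 1.40. Hoxd9 followed with 0.522 ± 0.259 FPKM and a range of 0.177 to 1.32. The 3 HoxD genes next to them, Hoxd10, Hoxd11 and Hoxd12, had 111, 68 and 0 reads in all, and the count of 0 allows a mean of up to 0.00219 FPKM for Hoxd12. The neighbours outside the cluster differed in level: Mtx2 was at 29.2 FPKM and Evx2 at 0.00224 FPKM. They flank HoxD on either side. A low level in bulk RNA can hold few cells at a high level or many at a low one.

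Expression was tested in the 24 members that reached 1 FPKM in at least 2 libraries, among 12593 genes that did so. The other 14 were given no test: Hoxa2, Hoxa3 and Hoxa4, Hoxb1, Hoxc5 and Hoxc8, and all of HoxD except Hoxd8. Tests were made with limma on log2(FPKM + 1) with the Benjamini-Hochberg adjustment taken across these 12593 genes, with 0.05 as the threshold. A log2 difference on this scale is smaller than the log2 ratio of the levels, most of all for low genes. Passing the filter can depend on the group where a gene is high, so counts are of tested members only.

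Guides against Lmna were first compared with gMock within mice, which asks whether editing of Lmna moved the family. In homozygous Cas9 cells 0 of 24 tested members passed, beside 0.0794% of all genes, and 2 had an unadjusted p under 0.05. Hoxb13 was 75.8, 101 and 85.03 FPKM under gMock, gLmna-1 and gLmna-2 in mouse 1, and 34.3, 64.7 and 40.8 FPKM in mouse 2. Both guides thus gave the higher value in both mice, and the log2 difference was 0.43 (95% interval 0.22 to 0.64, limma adjusted p = 0.204). Without the gLmna-1 library of mouse 1 this difference was 0.54, in 1 of 18 fits that left out a library. That fit leaves 1 gLmna-1 library in this genotype, and more of all genes passed in it than in the main fit. The other member under 0.05 before adjustment was Hoxc12, at −0.21 (−0.42 to −0.01, adjusted p = 0.568).

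In wild-type Cas9 cells 0 of 24 members passed for the guides against gMock, beside 0.85% of all genes, and 2 had an unadjusted p under 0.05. Hoxb13 was 75.5, 103 and 83.7 FPKM under gMock, gLmna-1 and gLmna-2 in mouse 1, and 128, 156 and 130 FPKM in mouse 2. As in the homozygous cells, gLmna-1 gave the highest value in both mice, and the log2 difference of both guides from gMock was 0.22 (0.02 to 0.43, limma adjusted p = 0.637). Hoxa6, a central gene with a mean of 0.936 FPKM, was at −0.47 (−0.73 to −0.22, adjusted p = 0.184). In heterozygous cells Hoxb13 was higher with both guides than under gMock in both mice as well: 74.7, 80.9 and 89.6 FPKM under gMock, gLmna-1 and gLmna-2 in mouse 1, and 115, 122 and 135 FPKM in mouse 2. The log2 difference there was 0.17 (−0.03 to 0.38, adjusted p = 0.996). In these cells, which have no Cas9, 0 of 24 passed beside 0% of all genes, and 1 had an unadjusted p under 0.05, Hoxc13 at −0.39 (−0.73 to −0.04, adjusted p = 0.996). Voom on recovered reads also called 0 members in each of these 3 comparisons.

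The difference of the guide effect between genotypes was tested directly and no member passed. The count was 0 of 24 for homozygous against heterozygous cells (0% of all genes), 0 for homozygous against wild-type cells (0.0476%) and 0 for wild-type against heterozygous cells (0.294%). Unadjusted p was under 0.05 for 1, 0 and 2 members, and voom called 0 in each. For Hoxb13 the difference between the homozygous and heterozygous guide effects was 0.26 (95% interval −0.04 to 0.55), and between the homozygous and wild-type effects 0.21 (−0.09 to 0.50). Intervals of this width leave room for differences of the size of the effects themselves.

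The 2 Lmna guides differed from each other in homozygous Cas9 cells, where 3 of 24 members passed (12.5%), beside 9.96% of all genes. This share is near the background. Hoxb7, a central gene of HoxB, went from 5.70 FPKM with gLmna-1 to 8.27 FPKM with gLmna-2 in mouse 1, and from 7.31 to 13.1 FPKM in mouse 2. It was higher under gLmna-2 in both mice, by 0.61 ± 0.11 (log2 difference ± SE, adjusted p = 0.0116). Hoxa11 rose likewise from 8.10 to 10.2 FPKM and from 8.52 to 14.3 FPKM, a log2 difference of 0.49 ± 0.13 (adjusted p = 0.0489). Hoxb13 fell under gLmna-2 by 0.45 ± 0.11 on the log2 scale (adjusted p = 0.0299), with the values given above.

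These 3 calls were not stable. With no block for the mouse 0 members passed, with adjusted p of 0.279 for Hoxb7, 0.695 for Hoxb13 and 0.388 for Hoxa11, and with only the homozygous libraries in the fit 0 passed too. With 1 library left out at a time, the count fell without either gLmna-2 library of homozygous cells and rose without the gLmna-1 library of mouse 1. The count over all genes moved with the library left out as well, and each such fit leaves 1 library in a group. The gLmna-1 libraries stand apart in this genotype, since the difference between the mice under gLmna-1 correlated over genes with that under gMock at 0.13 and with that under gLmna-2 at −0.02, while gMock and gLmna-2 correlated at 0.78. Other genes moved between the same libraries: the cartilage gene Col2a1 was lower under gLmna-2 by 2.31 on the log2 scale (log2 difference −2.31, adjusted p = 0.0307) and the fibroblast marker Thy1 was higher by 1.08 (adjusted p = 0.0139). Of 11 fibroblast markers 1 rose and 2 fell, and of 8 tested markers of cartilage, bone and tendon 2 fell, and their part in the Hox values was not tested.

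Hoxa11 shares 568 bases, 24.9% of its length, with Hoxa11os, a transcript on the opposite strand, and the strand setting of the count is not stated. On the bases it does not share, its difference between the guides was 0.56 with an adjusted p of 0.0783, so that the call is lost. In heterozygous and wild-type Cas9 cells 0 of 24 members passed between the guides, beside 0% of all genes in each, and voom called 0. Unadjusted p was under 0.05 for 0 members in heterozygous and 7 in wild-type cells. In wild-type cells Hoxb13 was at −0.28 (−0.52 to −0.04), Hoxb7 at 0.28 (0.03 to 0.52) and Hoxa11 at 0.38 (0.08 to 0.69), with adjusted p of 0.571, 0.572 and 0.513. Whether the guides differ more in homozygous than in wild-type cells was not tested.

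**Figure D2:**
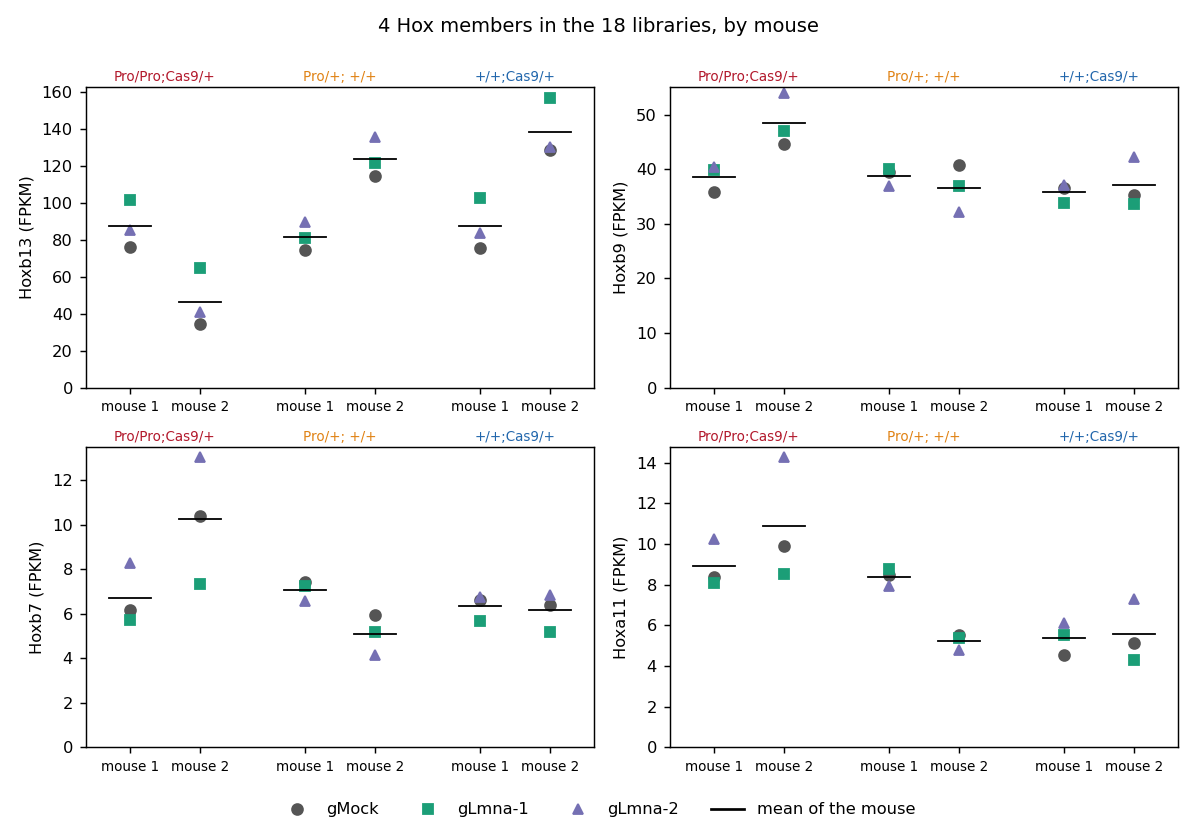
FPKM of Hoxb13, Hoxb9, Hoxb7 and Hoxa11 in each of the 18 libraries, by genotype and mouse on the horizontal axis, with 1 symbol per treatment and a line at the mean of each mouse. Hoxb13 separates the mice within each genotype, from 34.3 to 64.7 FPKM in homozygous mouse 2 and from 128 to 156 FPKM in wild-type mouse 2.

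Cultures of different mice of 1 genotype differed in Hoxb13 more clearly than treatments did. Over the 3 matched treatments, mouse 2 was compared with mouse 1, which compares cultures of single animals and no condition. Hoxb13 passed in all 3 genotypes. In homozygous Cas9 cells it was 75.8 to 101 FPKM in mouse 1 and 34.3 to 64.7 FPKM in mouse 2, without overlap and lower in mouse 2 (log2 difference −0.94 ± 0.09, adjusted p = 0.00104). In heterozygous cells it was 74.7, 80.9 and 89.6 FPKM in mouse 1 and 115, 122 and 135 FPKM in mouse 2, higher in mouse 2 (0.60 ± 0.09, adjusted p = 0.00555). In wild-type Cas9 cells it was 75.5 to 103 FPKM in mouse 1 and 128 to 156 FPKM in mouse 2, again higher (0.66 ± 0.09, adjusted p = 0.00888). The means of mouse 1 and mouse 2 were 87.4 and 46.6 FPKM in homozygous, 81.7 and 124 FPKM in heterozygous and 87.3 and 138 FPKM in wild-type cells.

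Hoxb13 kept its call and its direction in the homozygous cells in each of 18 fits that left out 1 library, and lost it, at an adjusted p of 0.131, with only the homozygous libraries in the fit. In heterozygous cells it passed in 16 of 18 such fits, not without the gMock library of either mouse, and in wild-type cells in 14 of 18, not without a gMock or gLmna-2 library of either mouse. The direction of the Hoxb13 difference was not the same in all genotypes.

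Other members differed between mice too, and not the same ones in each genotype. In homozygous Cas9 cells 3 of 24 passed, beside 7.93% of all genes: Hoxb13 fell and Hoxb7 and Hoxb9 rose. Hoxb7 was 5.70 to 8.27 FPKM in mouse 1 and 7.31 to 13.1 FPKM in mouse 2 (0.53 ± 0.09, adjusted p = 0.00996). The ranges overlap, while within each treatment mouse 2 was higher. Hoxb9 was 35.8 to 40.4 FPKM in mouse 1 and 44.6 to 53.97 FPKM in mouse 2 (0.32 ± 0.07, adjusted p = 0.0260). Of the 24 members 19 were higher in mouse 2, with a median log2 difference of 0.17 beside 0.03 over all genes. Hoxd8 is counted among them although it reached 1 FPKM only in the 3 libraries of this mouse. It was thus tested only because of the libraries where it is high, and its direction was fixed by the filter. The count of called members rose without the gLmna-1 library of either mouse and fell without a gMock or gLmna-2 library. The count over all genes moved with the library left out as well, and each such fit leaves 1 library in a group.

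In heterozygous cells 5 of 24 members passed between the mice (20.8%), beside 8.18% of all genes. Hoxb13 rose and 4 members fell in mouse 2: Hoxa11 from 7.92 to 8.78 FPKM in mouse 1 to 4.77 to 5.54 FPKM in mouse 2 (−0.59 ± 0.11, adjusted p = 0.0134), Hoxb7 (−0.42 ± 0.09, adjusted p = 0.0221), Hoxa7 (−0.45 ± 0.10, adjusted p = 0.0224) and Hoxa10 (−0.38 ± 0.09, adjusted p = 0.0360). Hoxa10 was 13.9, 14.7 and 14.97 FPKM in mouse 1 and 10.3, 11.1 and 11.5 FPKM in mouse 2, without overlap. Hoxa7, a central gene, was 1.40 to 1.54 FPKM in mouse 1 and 0.714 to 0.878 FPKM in mouse 2, also without overlap. Each of these 4 calls was lost when any 1 of the 6 heterozygous libraries was left out, with its direction kept. All 7 tested HoxA members were lower in mouse 2, 3 of them past the threshold, with a median of −0.36 beside −0.02 over all genes. Hoxa11os, opposite Hoxa11, was lower as well (−0.53, adjusted p = 0.0134). It shares 568 bases with Hoxa11, so the same reads may enter both values and this is no separate observation.

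The mice of this genotype differ in more than Hox genes. Mouse 2 is the one with no Xist and with Ddx3y, and 7 of 10 macrophage and immune markers fell in it, their sum going from 304 to 577 FPKM in mouse 1 to 71.1 to 142 FPKM in mouse 2. The lysozyme gene Lyz2 was lower by 1.94 on the log2 scale (log2 difference −1.94, adjusted p = 0.0145). Their part in the Hox values was not tested. In wild-type Cas9 cells 1 of 24 members passed between the mice, Hoxb13, beside 0.953% of all genes, and 3 more had an unadjusted p under 0.05, Hoxb8, Hoxb3 and Hoxd8. There the macrophage and immune markers also summed lower in mouse 2, at 71.4 to 216 FPKM beside 251 to 419 FPKM. In homozygous cells the sums were 457 to 1512 FPKM in mouse 1 and 735 to 1163 FPKM in mouse 2, which overlap. Other markers did differ between the homozygous mice. Those of cartilage, bone and tendon summed to 64.1 to 201 FPKM in mouse 1 and 275 to 463 FPKM in mouse 2. The Schwann and pigment cell markers summed to 9.28 to 17.98 FPKM and 25.3 to 43.2 FPKM. Neither pair of ranges overlapped, and the part of these markers in the Hox values was not tested.

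**Figure D3:**
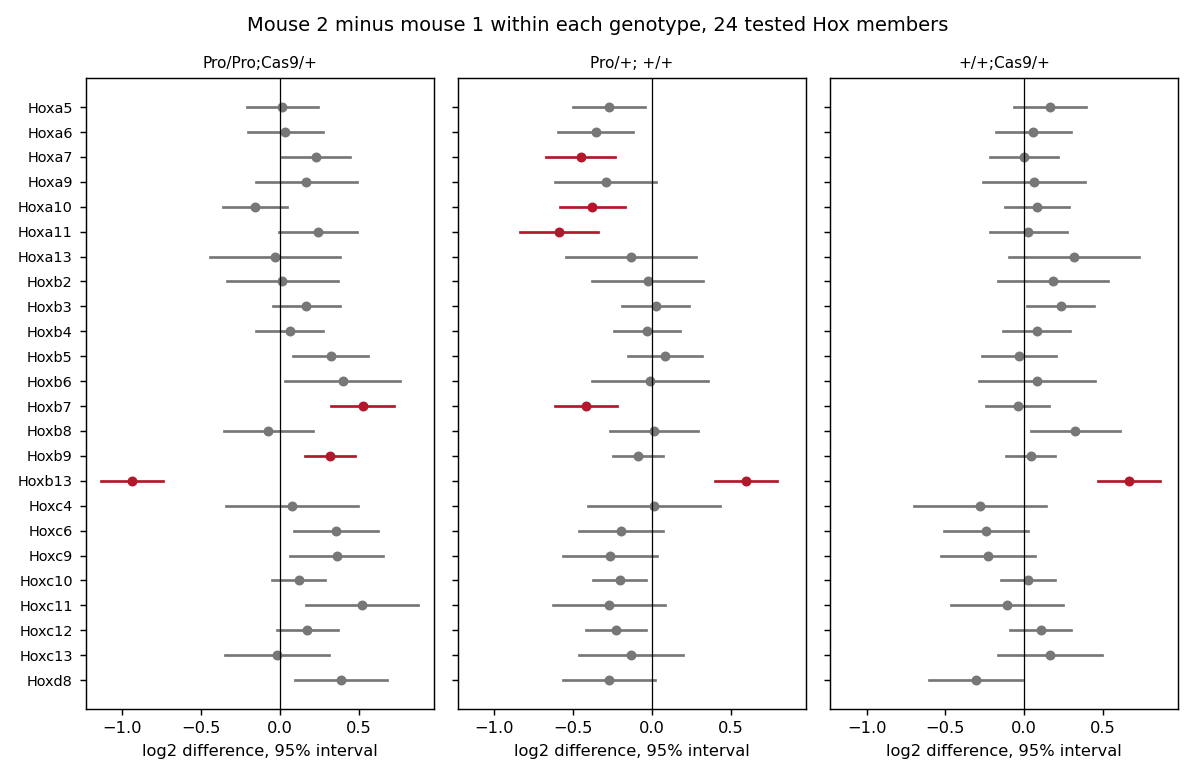
Log2 difference, mouse 2 minus mouse 1, with 95% intervals for the 24 tested Hox members in each genotype, with called members in red and others in grey. Hoxb13 is called in all 3 panels, to the left at −0.94 in homozygous Cas9 cells and to the right at 0.60 and 0.66 in the others.

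Genotypes were compared in the 6 gMock libraries, 2 mice each. No member passed: 0 of 24 for homozygous minus wild-type Cas9 cells, beside 0.397% of all genes, 0 for heterozygous minus wild-type cells, beside 0.413%, and 0 for homozygous minus heterozygous cells, beside 0%. Unadjusted p was under 0.05 for 5, 5 and 1 members, and voom called 0 in each. The first and the second of these comparisons share the wild-type libraries, so that likeness between them is no second observation.

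HoxA members lay on 1 side in the comparisons with wild-type cells, and most other tested members lay on the same side. Of the 24 tested members, Hoxa6, Hoxc4 and Hoxd8 did not reach 1 FPKM in any wild-type library and were tested because of libraries with Pro, so they are left out of the counts here. Of the 21 that reached 1 FPKM in at least 2 libraries of each genotype, 6 are in HoxA. All 6 were higher in homozygous cells, with a median log2 difference of 0.72 beside 0.37 over the 21 members and 0.00 over the 11613 genes that met the same condition. All 6 were also higher in heterozygous cells, with a median of 0.61 beside 0.18 and −0.01. In each of these comparisons 8 of 9 HoxB and 4 of 6 HoxC members were higher as well, and so were 18 of the 21 members. Hoxa9, a posterior gene known from blood progenitors and the limb, had the largest difference of a HoxA member in both: 3.41 and 4.91 FPKM in homozygous, 3.80 and 3.37 in heterozygous and 1.62 and 1.84 in wild-type cells under gMock. Its log2 difference from wild type was 0.90 (95% interval 0.44 to 1.37, adjusted p = 0.160) in homozygous and 0.75 (0.28 to 1.21, adjusted p = 0.231) in heterozygous cells. Hoxa10 was at 0.72 (0.30 to 1.14, adjusted p = 0.207) and 0.65 (0.23 to 1.07, adjusted p = 0.239), and Hoxa5 at 0.73 (0.30 to 1.16, adjusted p = 0.211) and 0.72 (0.29 to 1.15, adjusted p = 0.223). None of these passed after adjustment, and their intervals lie above 0 before it.

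Marker genes of other kinds also differed between these groups. The 11 fibroblast markers summed to 9994 to 11726 FPKM in homozygous, 10321 to 11440 in heterozygous and 11932 to 14260 in wild-type cells over all treatments, without overlap between wild type and the others. The members of this list did not all go that way. Vim and S100a4 were higher in wild-type cells without overlap, at 4677 to 5091 and 3932 to 4683 FPKM. Col1a1 was 2128 to 3162 FPKM in heterozygous and 1070 to 1879 in wild-type cells, and Col1a2 was 1320 to 2210 and 648 to 1261. Thy1 (−3.26, adjusted p = 0.0422) and Pdgfra (−1.16, adjusted p = 0.0375) were lower in homozygous than in wild-type cells under gMock. The muscle actin gene Acta1 was lower in heterozygous than in wild-type cells (−1.99, adjusted p = 0.0288), while the defining muscle genes Myf5 and Myod1 were at or near 0 in all libraries. The 10 macrophage and immune markers summed to 457 to 1512 FPKM in homozygous, 71.1 to 577 in heterozygous and 71.4 to 419 in wild-type cells, without overlap between homozygous and wild-type cells. All 10 were higher in homozygous than in wild-type cells under gMock, with 0 past the limma threshold, 9 at an unadjusted p under 0.05 and 0 called by voom. The part of these differences in the Hox values was not tested.

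**Figure D4:**
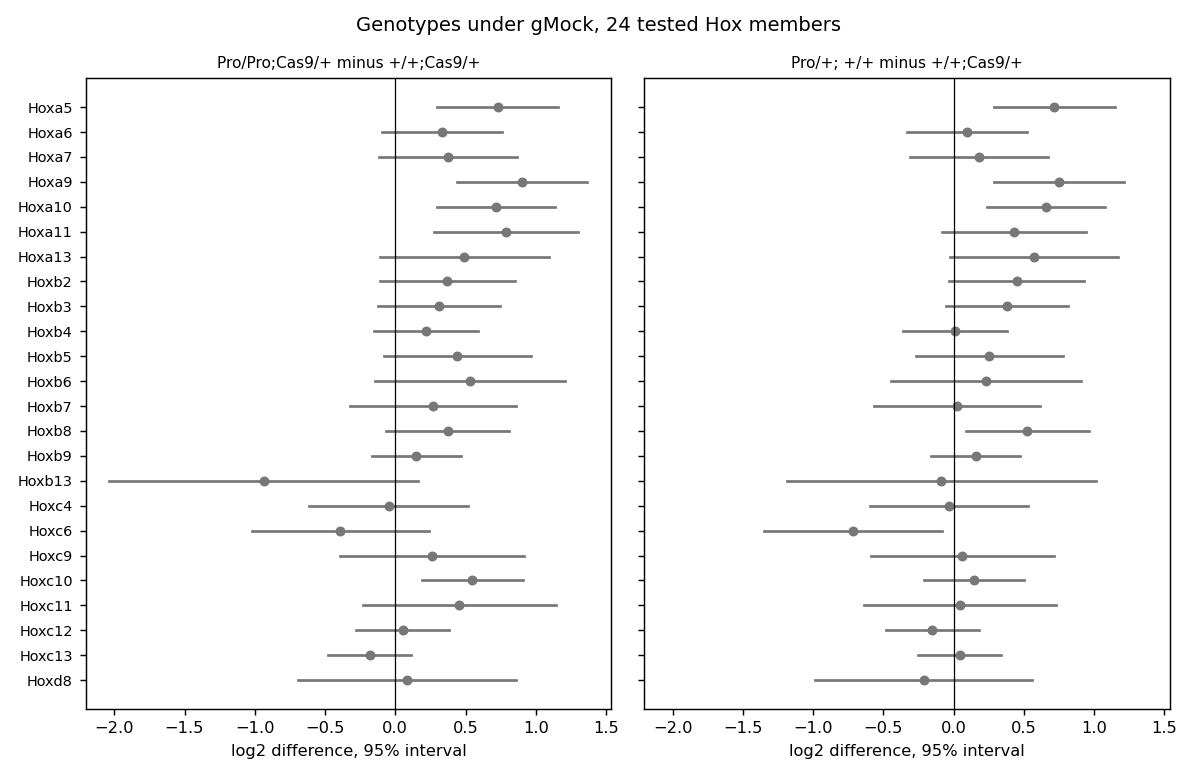
Log2 difference under gMock with 95% intervals for the 24 tested Hox members, homozygous minus wild-type cells (left) and heterozygous minus wild-type cells (right), which share the wild-type libraries. No member is called, and the points of the HoxA members lie above 0 in both panels, with Hoxa9 at 0.90 and 0.75. The HoxA points include Hoxa6, which reached 1 FPKM in no wild-type library and was tested because of libraries with Pro.

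All treatments of a mouse can be set side by side as well, although the 3 libraries of a mouse are not independent. Over all 6 libraries of a genotype, 9 of these 21 members lay above wild-type Cas9 cells without overlap in homozygous cells, beside 2.52% of the 11613 genes, and 0 lay below, beside 3.53%. They were Hoxa5, Hoxa7, Hoxa9, Hoxa10, Hoxa11, Hoxb2, Hoxb5, Hoxb8 and Hoxc10. In heterozygous cells 6 members lay above, Hoxa5, Hoxa9, Hoxa10, Hoxb2, Hoxb3 and Hoxb5, beside 5.77%, and 1 lay below, Hoxc6, beside 9.93%. Between homozygous and heterozygous cells 0 members were free of overlap in either direction, beside 0.732% higher and 0.715% lower of these genes.

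The levels behind these counts were as follows. Hoxa9 had a lowest, median and highest value of 2.88, 3.68 and 4.91 FPKM in homozygous, 2.55, 3.26 and 4.40 in heterozygous and 1.11, 1.57 and 1.84 in wild-type cells. Hoxa10 had 11.8, 14.7 and 15.8 FPKM in homozygous, 10.3, 12.7 and 14.97 in heterozygous and 6.89, 8.10 and 9.24 in wild-type cells. In both, the libraries with Pro were above all wild-type libraries. Summed HoxA was 36.5 to 41.5 FPKM in homozygous, 26.2 to 39.8 in heterozygous and 19.7 to 24.3 in wild-type cells, so that neither range with Pro reached the wild-type range. The heterozygous mice differed, with mean sums of 38.7 and 28.7 FPKM. With the mean of the 3 treatments of each mouse in place of gMock alone, 0 members passed, beside 0.341% of all genes in homozygous and 1.45% in heterozygous minus wild-type cells, and Hoxa9 had adjusted p of 0.0673 and 0.0659 against wild type.

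**Figure D5:**
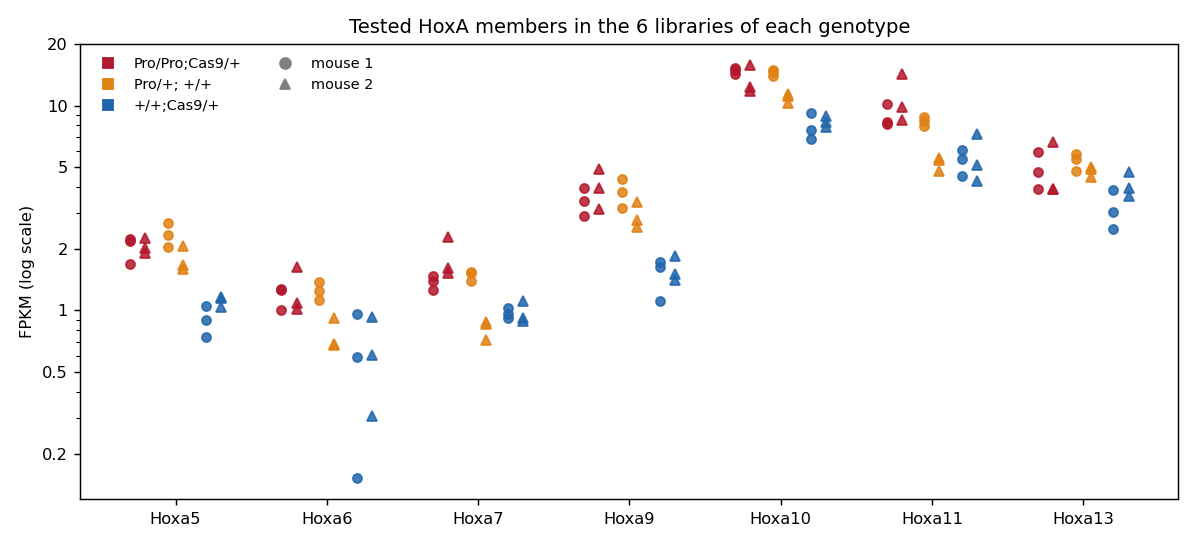
FPKM on a log axis of the 7 tested HoxA members in the 6 libraries of each genotype, with circles for mouse 1 and triangles for mouse 2. For Hoxa5, Hoxa9 and Hoxa10 the wild-type libraries lie below all others, as for Hoxa9 with 1.11 to 1.84 FPKM.

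In neither genotype with Pro did Hoxb13, Hoxc13 or a HoxD member lie above all wild-type libraries. Hoxb13 under gMock was at −0.93 in homozygous minus wild-type cells, with a 95% interval of −2.03 to 0.17 (adjusted p = 0.601), beside mouse values of 75.8 and 34.3 FPKM against 75.5 and 128 FPKM. Hoxc13 had a lowest, median and highest value of 12.6, 13.5 and 14.6 FPKM in homozygous, 9.88, 13.5 and 16.2 in heterozygous and 14.03, 16.5 and 21.9 in wild-type cells. Hoxa13 had 3.91, 4.34 and 6.62 FPKM in homozygous, 4.46, 4.96 and 5.78 in heterozygous and 2.49, 3.75 and 4.72 in wild-type cells. Hoxd13 had 0.0336, 0.0942 and 0.218 FPKM, 0.127, 0.259 and 0.325 FPKM, and 0.0495, 0.0696 and 0.180 FPKM in the same order, which overlap.

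Transcripts around the clusters and genes that act with or on Hox genes were taken from lists. Of 22 noncoding RNAs and neighbours, Hoxb5os (17.0 FPKM), Mir196a-1 (16.8), Hoxa11os (9.41), Hotairm1 (5.22) and Hotair (1.19) were transcribed within the clusters, while Hottip, at the 5′ end of HoxA, was at 0.135 FPKM. The value of Mir196a-1 is for reads over its precursor. Hoxb5os fell with gLmna-2 against gLmna-1 in homozygous cells (−0.98, adjusted p = 0.00404) and differed between the mice in homozygous (−0.84, adjusted p = 0.00240) and wild-type cells (0.64, adjusted p = 0.0191). In the heterozygous mice, where Hoxb13 was higher in mouse 2, Hoxb5os was 19.3 to 25.2 FPKM in mouse 1 and 21.6 to 22.6 FPKM in mouse 2, which overlap.

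The TALE cofactors, homeodomain proteins that bind DNA together with Hox proteins, included Meis3 at 14.1 FPKM and Pbx2 at 11.2 FPKM. Of 8 tested cofactors 0 passed in limma for the guides against gMock or between genotypes, with at most 2 at an unadjusted p under 0.05 in each, and Pbx3 was the 1 that passed between the guides in homozygous cells (0.68, adjusted p = 0.0130). Of 15 Polycomb genes, which keep Hox genes silent, 0 passed in any of the 15 comparisons, with at most 2 at an unadjusted p under 0.05 in each. Of 9 Trithorax and H3K27 demethylase genes, which act against Polycomb, 0 passed in a comparison of guides or genotypes, again with at most 2 before adjustment. Voom called 0 members of these 3 lists wherever limma called 0. Among 14 inducers and retinoid genes, the Hox activators Cdx1, Cdx2 and Cdx4 were at or near 0, and the retinoid-binding gene Crabp1 rose with gLmna-2 against gLmna-1 in homozygous cells (1.75, adjusted p = 0.00404). Crabp1 also differed between the heterozygous mice (1.70, adjusted p = 0.00115). Over all treatments it was 185 to 308 FPKM in wild-type cells and 13.1 to 90.1 FPKM in the other genotypes, without overlap, and its log2 difference under gMock from wild type was −3.95 (adjusted p = 0.0604) in homozygous and −3.15 (adjusted p = 0.107) in heterozygous cells. Of 15 tested positional transcription factors outside the Hox family, Shox2 was the 1 that passed between genotypes. It was 1.44 and 1.66 FPKM in homozygous and 7.82 and 7.21 FPKM in wild-type cells under gMock (−1.74, adjusted p = 0.0422), and over all treatments 7.21 to 11.9 FPKM in wild-type cells and at most 4.01 FPKM in the others. Twist2 was 28.8 to 46.4 FPKM in wild-type cells and at most 16.9 FPKM in the others, with no call. The part of these differences in the Hox values was not tested either.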

How the data were processed

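RNA was measured in 18 libraries of primary tail-tip fibroblasts, and total RNA was extracted without DNase digestion, per the labels' protocols. The submitters' processing notes name FastQC 0.11.2, STAR 2.4.0k with the mm10 build, and HOMER. The authors deposited FPKM values for 404759 exon parts of 36795 transcripts, and per the file headers each part has its length in bases. The design had assumed rows of genes. Parts were joined into transcripts by a mean weighted by length, and the transcript with the highest mean was taken for each symbol. Of 24 library columns, 6 match no labelled sample and were not used. One matching Hox symbol is not reported here. Low values came out as whole reads (100% within 0.05), and these reads were used for voom.

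Genes that reached 1 FPKM in 2 or more libraries entered limma 3.58.1 (trended eBayes) in R 4.3.3 on log2(FPKM + 1), a scale that understates changes of low genes. Treatments and mice were compared in 1 fit over 18 libraries with the mouse as a block, and genotypes in the 6 gMock libraries. The fit was tested on simulated data. Tables and figures were made with Python 3.11.15, pandas 2.3.3, numpy 2.4.6 and matplotlib 3.10.9. P-values of the guide and mouse comparisons measure the spread between libraries that remains after the mouse block, not the spread between mice. Those of the genotype comparisons measure the spread between the cultures of 2 mice per genotype. Mouse numbers follow the order of the samples and pair nothing across genotypes, while libraries of 1 mouse share its name in the labels. After group means were removed, the mouse differences of a pair of treatments correlated over genes at −0.02 to 0.78 in homozygous, 0.47 to 0.73 in heterozygous and 0.18 to 0.59 in wild-type cells.

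The members and gene lists were chosen with earlier results of these data known. By rule, values per library were given for group 13, the 2 highest members of each cluster and called members, and of other lists for up to 4 called members with the smallest p. Hoxa5, Hoxa6, Hoxa9, Hoxc10, Hoxc6 and others were named after their values were seen. Alternatives were another pseudocount (0.25), no filter or 5 FPKM, quantile normalization, voom, the longest transcript, unshared parts, other blocks, fewer libraries, the mean per mouse, only genes at 1 FPKM or more in 2 libraries of each genotype (chosen after seeing the data, and used for the counts of members between genotypes), and each library left out in turn.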

Additional observations from a re-analysis of the deposited data

Results flagged for a closer look

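For 2 members the guide effect (mean of gLmna-1 and gLmna-2 minus gMock) went one way in every pair of libraries of a genotype and the opposite way in every pair of another. Hoxc10 was lower with the guides in homozygous and higher in wild-type Cas9 cells, with a log2 difference of the effects of −0.22 (limma adjusted p = 1.00), and its difference between wild-type and heterozygous cells was 0.14 (adjusted p = 0.964). Hoxc13 was higher with the guides in wild-type and lower in heterozygous cells, with a difference of 0.63 (adjusted p = 0.964). None of the 3 differences passed the threshold when it was tested. Both pairs of a mouse contain its only gMock library and are thus not independent. The share of all genes with such opposite directions was not counted, so these 2 members cannot be told from the background.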

How the results depend on the processing

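The count of called members between the guides in homozygous Cas9 cells was 3, and became 1 with quantile normalization, 0 with no replicate block and 0 with only the libraries of that genotype. For the mice of that genotype the count of 3 became 0 with only its own libraries. Leaving out 1 library gave 0 to 9 for the guides, 1 to 10 for the homozygous mice, 0 to 7 for the heterozygous mice, 0 to 1 for the wild-type mice and 0 to 1 for guides against gMock in homozygous cells. Beyond fewer libraries in the fit, the cause was not tested. The count of 20 members at a mean of 1 FPKM did not move with the longest transcript or with unshared parts. Alternatives were fitted for the 52 pairs of a member and a comparison with an unadjusted limma p under 0.05. Of these fits 85 lost a call, 15 gained one, 1131 kept their side of the threshold, and 0 changed sign. The pairs were chosen by their p in the main fit and refitted on nearly the same libraries. Keeping the sign was thus nearly fixed in advance.

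In paired terms, the fits without the mouse block changed no other count of called Hox members, and a replicate block by mouse number in the genotype comparisons, where the numbers pair nothing, left 0 called members in each. Counts over all genes moved more. With no replicate block the count for guides against gMock in homozygous cells went from 10 to 0, and without the gLmna-1 library of mouse 1 to 152. Guides against each other in that genotype gave 1254 genes, 0 with only its libraries and 2637 without that gLmna-1 library. Guides against gMock in wild-type cells gave 107, 67 with only their libraries and 0 without the gMock library of mouse 1. Differences of guide effects gave 6 for homozygous against wild-type cells (0 to 22) and 37 for wild-type against heterozygous cells (0 to 66). Genotypes under gMock gave 50 (0 with the replicate block) and 52 (0 with that block, 183 with the mean per mouse). Mice gave 999 in homozygous (1 to 2857), 1030 in heterozygous (185 to 1974) and 120 in wild-type cells (21 to 389). Most HoxD members had too few reads to compare.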
